A study of Schizosaccharomyces pombe with 261 samples.

Results

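The 6 genes tps1, ntp1, gpd1, gpd2, gut2 and gld1 of the fission yeast Schizosaccharomyces pombe, chosen by systematic ID, encode enzymes of trehalose and glycerol metabolism. They are 6 of the 7015 gene identifiers in the count files, and all 6 passed the filter on low counts that left 6172 genes for testing. The study moved cells from 30 °C to 37.5 °C. Among the deletions it sampled were those of atf1 and pcr1, which encode transcription factor subunits, and of clr4. Its 39 mRNA libraries form 13 groups of 3. Wild type (WT) was sampled at 0, 5 and 25 min under the title prefix RNA1 and at 0, 2.5 and 5 min under RNA2. The prefix RNA3 holds the deletions, of which atf1Δ and pcr1Δ were sampled before heat and after 5 min, and clr4Δ after 2.5 min as well. All strains, WT included, were h+ and carried ade6-DN/N, leu1-32 and ura4-DS/E, with the marker insertions imr1L::ura4+ and otr1R::ade6+ at the centromere. The deletions were atf1Δ::KanMX6, pcr1Δ::KanMX6 and clr4Δ::NatMX6. Whether replicates came from separate cultures, and how many isolates stand behind a strain, is not in the labels, so p-values measure the spread between these libraries, which may be technical. No WT library carries the prefix RNA3, so in each comparison of a deletion with WT the strain and the prefix cannot be told apart.

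Trehalose is a disaccharide that yeasts build up under heat and other stresses. Tps1 joins UDP-glucose and glucose 6-phosphate to trehalose 6-phosphate, a phosphatase then releases trehalose, and the neutral trehalase Ntp1 splits it back to glucose. Glycerol begins with Gpd1 or Gpd2, isozymes that reduce dihydroxyacetone phosphate to glycerol 3-phosphate. Gut2, the mitochondrial glycerol-3-phosphate dehydrogenase, oxidises glycerol 3-phosphate again, and the glycerol dehydrogenase Gld1 turns glycerol into dihydroxyacetone. In fission yeast the stress kinase Sty1 acts on the Atf1-Pcr1 dimer, a transcription factor that binds the cAMP response element, whose core is TGACGT. Clr4 is the histone H3 lysine 9 methyltransferase of heterochromatin.

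Promoter windows of 250 bases before the transcript start were read from RefSeq (ASM294v3) to show where the element lies in the 6 genes. All 6 genes had an annotated start. TGACGT on either strand was present in the windows of gpd1, ntp1 and gut2, and in 5.54% of the 5144 windows of all protein-coding genes. The window of gpd1 held it at 123 and at 74 bases before the start, that of ntp1 at 69 and that of gut2 at 70. Windows of tps1, gpd2 and gld1 held no match. The heat shock element core GAANNTTC, present in 9.62% of windows, was found in gut2 at 111 bases and in gld1 at 78 bases, and TTCNNGAA, present in 8.36%, in none of the 6. Neither match in gut2 overlapped the other. A match is a description of these letters only. The files' own starts can lie elsewhere, since start and end coincide in both annotations for only 5.9% of 5137 genes. For gld1 the window, chrI:2176573-2176822, lies by its coordinates inside the gene as counted in ASM294v2, chrI:2174641-2177050. The windows of the 3 genes with a TGACGT match, and of tps1 as one without, are given 5′ to 3′ on the gene's strand, with matches to TGACGT on either strand and to GAANNTTC in capitals.
gpd1, chrII:4035316-4035565, + strand: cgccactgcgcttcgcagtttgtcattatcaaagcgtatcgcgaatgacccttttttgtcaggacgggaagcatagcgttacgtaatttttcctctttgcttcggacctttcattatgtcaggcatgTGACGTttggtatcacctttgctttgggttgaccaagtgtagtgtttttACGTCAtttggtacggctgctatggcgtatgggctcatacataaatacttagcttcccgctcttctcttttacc
ntp1, chrII:206331-206580, + strand: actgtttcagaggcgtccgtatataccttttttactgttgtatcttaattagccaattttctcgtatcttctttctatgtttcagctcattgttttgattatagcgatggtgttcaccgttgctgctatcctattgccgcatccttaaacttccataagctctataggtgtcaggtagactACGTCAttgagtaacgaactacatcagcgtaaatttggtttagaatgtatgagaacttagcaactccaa
gut2, chrIII:1843257-1843506, - strand: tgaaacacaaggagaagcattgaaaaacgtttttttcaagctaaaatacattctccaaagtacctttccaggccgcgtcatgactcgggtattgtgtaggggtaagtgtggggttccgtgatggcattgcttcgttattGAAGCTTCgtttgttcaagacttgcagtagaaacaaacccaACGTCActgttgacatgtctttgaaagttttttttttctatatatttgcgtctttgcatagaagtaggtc
tps1, chrI:3478899-3479148, + strand: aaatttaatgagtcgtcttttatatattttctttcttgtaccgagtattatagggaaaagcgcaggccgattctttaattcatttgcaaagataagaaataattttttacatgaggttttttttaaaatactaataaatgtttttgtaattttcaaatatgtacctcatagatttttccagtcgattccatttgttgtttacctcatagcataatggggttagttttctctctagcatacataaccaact

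Libraries held 6573143 to 12588425 counts in genes. Reads that mapped to several places made up 6.80% to 21.2%, and reads outside genes 1.19% to 2.49%. The deleted genes were looked at first. In libraries labelled atf1Δ, atf1 stood at 128.5 ± 12 CPM at 0 min, against 130.5 ± 14 and 213 ± 9 CPM in unheated WT of RNA1 and RNA2, which left it within the spread of WT of RNA1. At 5 min it stood at 168 ± 7 CPM, against 718 ± 31 and 572 ± 55 CPM in WT. CPM stands for counts per 1000000, TMM-scaled, and errors beside means are SD over 3 libraries. In libraries labelled pcr1Δ, pcr1 stood at 42.3 ± 4.8 CPM at 0 min, against 64.1 ± 9.0 and 71.7 ± 15.2 CPM in WT, a difference of -0.68 ± 0.15 log2 units (adjusted p = 0.000385). At 5 min it stood at 53.3 ± 2.7 CPM, against 363 ± 35 and 290.0 ± 36 CPM in WT. The clr4 counts went against the label: 175 ± 4 CPM in libraries labelled clr4Δ at 0 min, against 51.1 ± 1.9 and 43.7 ± 0.8 CPM in WT. Which part of each gene was deleted is not given in the sources used here, so these levels do not settle the labels, and the deletions are called by their labels throughout.

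**Figure D1:**
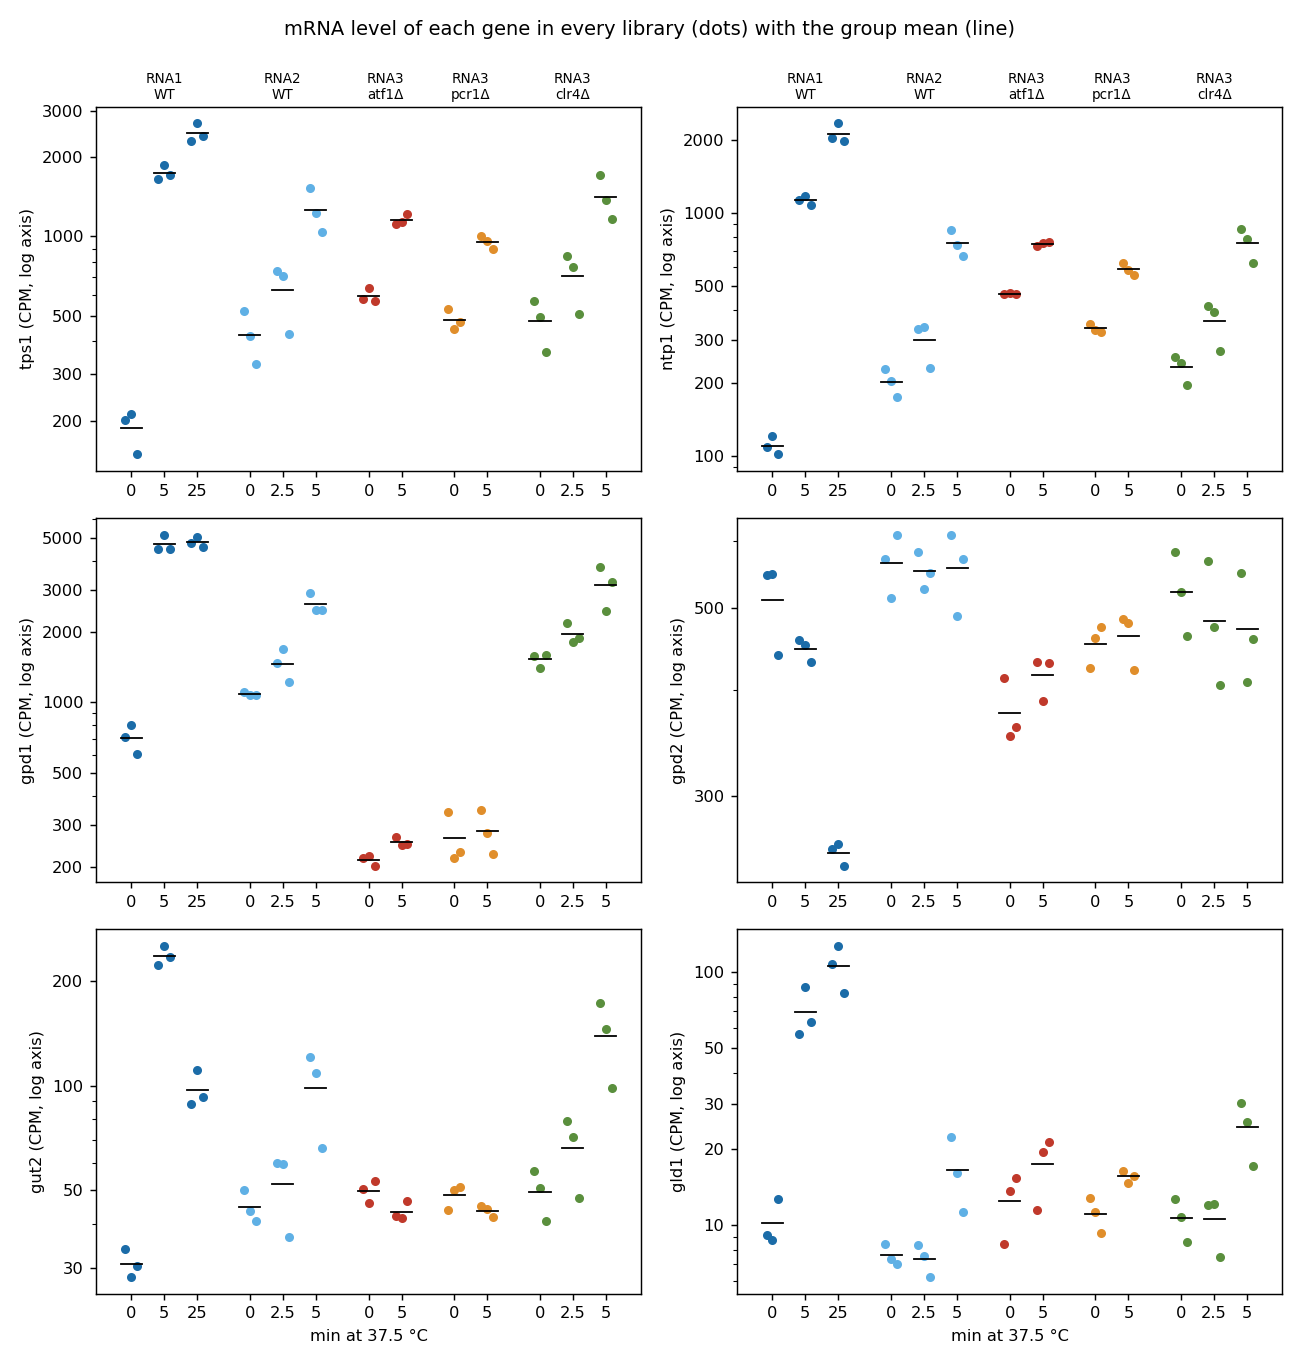
Level of each of the 6 genes in all 39 libraries, in CPM on a log axis, by min at 37.5 °C, with dots for libraries and lines for group means of 3. Levels of tps1 and ntp1 were higher at 5 than at 0 min in all 5 strain and prefix sets, gpd1 lay at 202 to 348 CPM in libraries labelled atf1Δ and pcr1Δ, and gpd2 kept within 248 to 609.6 CPM.

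The trehalose synthase gene tps1 (SPAC328.03, chrI:3479098-3481305, + strand, ASM294v2) is a single coding exon in RefSeq, as are the other 5 genes. In WT of RNA1, replicates 1 to 3 held 201, 213 and 149 CPM at 0 min, 1652, 1873 and 1708 CPM at 5 min, and 2309, 2686 and 2405 CPM at 25 min. The 3 times did not overlap, and each was above the one before. In WT of RNA2 the values were 522, 420.4 and 327.6 CPM at 0 min, 741, 711 and 428.5 CPM at 2.5 min, and 1521, 1230.0 and 1038 CPM at 5 min. The 2.5 min libraries overlapped those at 0 min, and the 5 min libraries lay above both. Libraries labelled atf1Δ held 579.8, 636 and 569 CPM at 0 min and 1119, 1132 and 1216 CPM at 5 min. Those labelled pcr1Δ held 529.6, 444 and 475 CPM and then 1001, 965 and 899 CPM. In both strains the heated libraries were all above the unheated ones. With the label clr4Δ, tps1 stood at 570.4, 495 and 365 CPM, at 845, 769 and 510.2 CPM after 2.5 min, and at 1705, 1372 and 1165 CPM after 5 min. Replicate 3 was the lowest of its group in WT of RNA2 and in the clr4Δ label at every time.

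In response to 5 min of heat, tps1 rose in every strain, and less in the libraries labelled atf1Δ and pcr1Δ than in WT. In bulk RNA a change in every cell and a change in a share of the cells cannot be told apart. The log2 change was 2.40 ± 0.14 (SE) in WT over both prefixes (edgeR adjusted p = 6.81e-16). It was 0.96 ± 0.19 with the label atf1Δ (adjusted p = 0.000208), 0.98 ± 0.19 with pcr1Δ (adjusted p = 0.000159) and 1.57 ± 0.19 with clr4Δ (adjusted p = 1.14e-07). Compared with WT, the response differed by -1.44 ± 0.23 log2 units with the label atf1Δ (adjusted p = 3.05e-05) and by -1.41 ± 0.23 with pcr1Δ (adjusted p = 4.72e-05). With WT of RNA2 alone as the reference, the differences were -0.62 (adjusted p = 0.476) and -0.59 (adjusted p = 0.599). Against the clr4Δ label, under the same prefix, the atf1Δ and pcr1Δ responses differed by -0.61 ± 0.27 and -0.59 ± 0.27, which did not pass the test (adjusted p = 0.301 and 0.443). With replicate numbers as a block within each strain both passed (adjusted p = 0.00103 and 0.00198).

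The neutral trehalase gene ntp1 (SPBC660.07, chrII:206580-209641, + strand) followed a like course. WT of RNA1 held 108, 120.1 and 101 CPM at 0 min, 1139, 1180.0 and 1077 CPM at 5 min, and 2044, 2350.0 and 1993 CPM at 25 min, with no overlap between times. WT of RNA2 held 228, 202 and 175 CPM, then 332, 339 and 230.5 CPM at 2.5 min, and 853, 738 and 664 CPM at 5 min. Each time was above the one before here too, though by little at 2.5 min, where replicate 3 lay just above the highest unheated library. Libraries labelled atf1Δ stood at 463, 469 and 466 CPM and then at 729.8, 755 and 759.8 CPM. Those labelled pcr1Δ stood at 349, 331 and 325 CPM and then at 623, 586 and 556 CPM. Before heat all 6 of these were above every unheated WT library. Libraries labelled clr4Δ held 256, 242 and 196 CPM, then 412, 390.1 and 271 CPM, and after 5 min 859, 786 and 622 CPM.

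After 5 min ntp1 had risen by a log2 change of 2.63 ± 0.10 in WT (adjusted p = 1.8e-20), 0.68 ± 0.14 with the label atf1Δ (adjusted p = 0.000248), 0.81 ± 0.14 with pcr1Δ (adjusted p = 2.65e-05) and 1.71 ± 0.14 with clr4Δ (adjusted p = 3.02e-11). Its response was smaller than in WT, with a difference of -1.95 ± 0.17 log2 units for the label atf1Δ (adjusted p = 2.82e-10) and -1.82 ± 0.17 for pcr1Δ (adjusted p = 1.24e-09). With WT of RNA2 alone these were -1.21 (adjusted p = 8.87e-05) and -1.08 (adjusted p = 0.000522). Against the clr4Δ label the differences were -1.03 ± 0.20 and -0.90 ± 0.20 (adjusted p = 0.000853 and 0.00508). The heated levels lay within their spread of each other in WT of RNA2, at 752 ± 95 CPM, with the label atf1Δ, at 748 ± 16 CPM, and with clr4Δ, at 756 ± 121 CPM. In WT of RNA1 the heated level was 1132 ± 52 CPM, and with pcr1Δ it was 588 ± 34 CPM. The unheated level was higher with atf1Δ, at 466 ± 3 CPM, than in WT of RNA2, at 202 ± 27 CPM. On the opposite strand SPNCRNA.1327 overlaps 10.81% of ntp1.

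The stress-responsive glycerol-3-phosphate dehydrogenase gene gpd1 (SPBC215.05, chrII:4035580-4037342, + strand) had the highest CPM of the 6 in WT. In WT of RNA1 it rose from 714, 805 and 603 CPM to 4482, 5168 and 4509 CPM at 5 min and stood at 4774, 5039 and 4567 CPM at 25 min. The later times overlapped each other and lay far above 0 min. WT of RNA2 held 1109, 1071 and 1071 CPM, then 1478, 1687 and 1216 CPM, and 2916, 2469 and 2481 CPM at 5 min. Libraries labelled clr4Δ held 1579, 1401 and 1598 CPM, then 2182, 1810.0 and 1870.0 CPM, and 3750.0, 2454 and 3255 CPM. In these sets no time overlapped another. Libraries labelled atf1Δ stood at 219, 222 and 202 CPM at 0 min and at 267, 247 and 249 CPM at 5 min. Those labelled pcr1Δ stood at 344, 218 and 231 CPM and then at 348, 279 and 226 CPM. All 12 of these libraries were below the lowest unheated WT library, and replicate 1 of pcr1Δ was high at both times.

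The log2 change of gpd1 at 5 min was 2.01 ± 0.11 in WT (adjusted p = 1.9e-16) and 1.05 ± 0.16 with the label clr4Δ (adjusted p = 2.65e-06). With the label atf1Δ it was 0.25 ± 0.16 (adjusted p = 0.244), which passed with the replicate block (adjusted p = 0.0367), and with pcr1Δ it was 0.11 ± 0.16 (adjusted p = 0.668). These responses differed from that of WT by -1.76 ± 0.19 and -1.90 ± 0.19 log2 units (adjusted p = 1.86e-08 and 4.2e-09), and from that of WT of RNA2 alone by -1.03 and -1.17 (adjusted p = 0.00366 and 0.000843). Before heat, gpd1 was 7.12-fold lower with the label atf1Δ than with clr4Δ, a difference of -2.83 ± 0.17 log2 units (adjusted p = 5.17e-15), and 5.78-fold lower with pcr1Δ, a difference of -2.53 ± 0.16 (adjusted p = 5.39e-14). The response differences against the clr4Δ label were -0.80 ± 0.22 (adjusted p = 0.0403) and -0.94 ± 0.22 (adjusted p = 0.0104). The first was lost without any one of 10 of the 12 libraries (adjusted p = 0.0554 to 0.169), and held only without replicate 1 of atf1Δ or replicate 2 of clr4Δ, both at 5 min. The second was lost without replicate 1 at 0 min or 3 at 5 min of pcr1Δ, or without replicate 2 at 0 min or 1 at 5 min of clr4Δ (adjusted p = 0.0626 to 0.0956). Fitted on the groups compared alone, neither passed (adjusted p = 0.0508 and 0.127).

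The isozyme gene gpd2 (SPAC23D3.04c, chrI:4342230-4344039, - strand) did not rise in any comparison with 0 min. WT of RNA1 held 546, 548 and 440.2 CPM at 0 min, 458, 452 and 431 CPM at 5 min, and 259.7, 263 and 248 CPM at 25 min. The 25 min libraries were below all others of the study. WT of RNA2 held 570.2, 513 and 609.6 CPM, then 581, 525 and 549 CPM, then 609, 489 and 571 CPM, and these times overlapped. Libraries labelled atf1Δ held 413, 353 and 362 CPM and then 432, 389 and 431 CPM. Those labelled pcr1Δ held 424, 460.1 and 474 CPM and then 485, 480.2 and 422 CPM. Before and after heat the libraries of each of these strains overlapped. With the label clr4Δ the values were 581, 521 and 463 CPM, 567, 475 and 405 CPM, and 550.0, 409 and 459 CPM. In WT the log2 change at 5 min was -0.11 ± 0.08 (adjusted p = 0.279), with a 95% interval from -0.26 to 0.05. Scaled by library totals alone it was -0.27 (adjusted p = 0.000878), where the median of all genes was -0.168. Within RNA1 the change was -0.19 ± 0.11 (adjusted p = 0.167), which passed with the replicate block (adjusted p = 0.0271) and without replicate 3 at 0 min (adjusted p = 0.0497). At 25 min gpd2 fell by 0.99 ± 0.11 on the log2 scale (adjusted p = 2.95e-09), 1.99-fold. The antisense SPNCRNA.979 covers 12.04% of gpd2 and held 339 to 864 counts.

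Per kilobase of gene, gpd1 stood above gpd2 in every WT library and every library labelled clr4Δ, and below it in every library labelled atf1Δ or pcr1Δ. The ratio of gpd1 to gpd2 went from 1.42 ± 0.08 at 0 min to 10.8 ± 0.9 at 5 min and 19.1 ± 0.4 at 25 min in WT of RNA1. In WT of RNA2 it went from 1.98 ± 0.17 to 2.73 ± 0.52 and 4.85 ± 0.36, and with the label clr4Δ from 3.03 ± 0.44 to 4.20 ± 0.46 and 6.82 ± 0.58. With the label atf1Δ it was 0.588 ± 0.054 and 0.627 ± 0.031, and with pcr1Δ 0.606 ± 0.195 and 0.628 ± 0.098. The coding sequences of the pair are identical at 65.07% of 1108 aligned bases, with no shared run longer than 14, so few reads could belong to either.

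**Figure D2:**
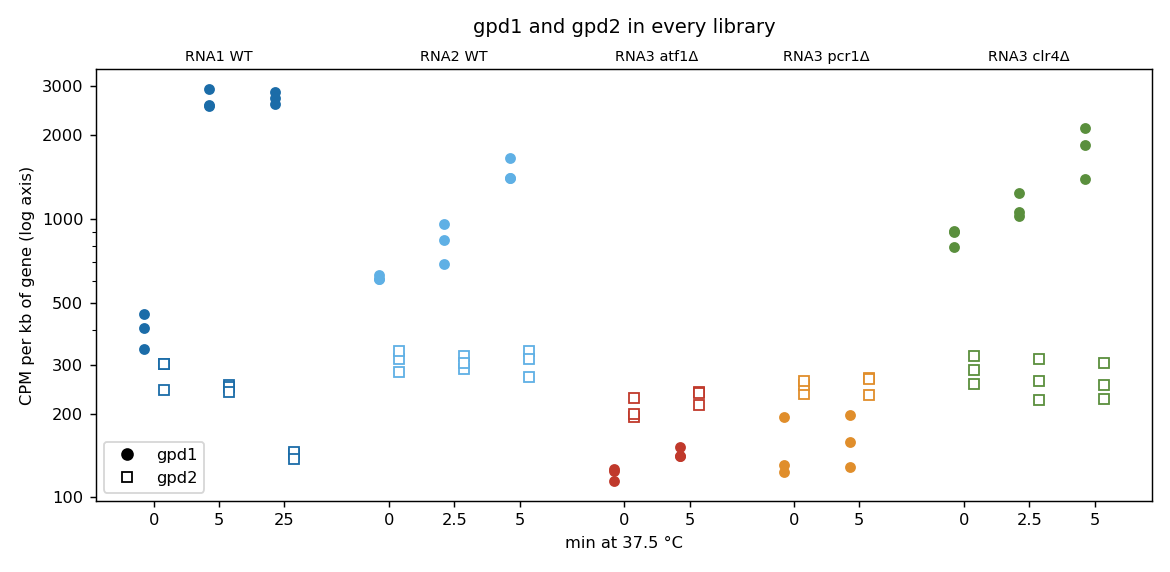
Level of gpd1 (filled circles) and gpd2 (open squares) per kilobase of gene in every library, in CPM per kb on a log axis, by min at 37.5 °C and strain. The circles lie above the squares in WT and in libraries labelled clr4Δ, with ratios of 1.34 to 19.6, and below them in libraries labelled atf1Δ and pcr1Δ, with ratios of 0.486 to 0.831.

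The gene of the mitochondrial glycerol-3-phosphate dehydrogenase, gut2 (SPCC1223.03c, chrIII:1840594-1843300, - strand), rose at 5 min and then came part of the way down. WT of RNA1 held 33.9, 28.2 and 30.4 CPM at 0 min, 222, 251 and 233 CPM at 5 min, and 88.2, 111 and 92.6 CPM at 25 min, with no overlap. WT of RNA2 held 50.3, 43.6 and 40.7 CPM, then 59.95, 59.4 and 36.8 CPM, and 121, 109 and 66.2 CPM at 5 min. Libraries labelled clr4Δ held 56.9, 51.0 and 41.0 CPM, then 79.3, 71.2 and 47.7 CPM, and 172, 146 and 98.2 CPM at 5 min. In both sets the 5 min libraries were above all at 0 min, and replicate 3 was the lowest at each time. Libraries labelled atf1Δ stood at 50.6, 46.0 and 53.2 CPM before and at 42.1, 41.7 and 46.7 CPM after 5 min. Those labelled pcr1Δ stood at 44.0, 49.98 and 51.0 CPM before and at 44.96, 44.2 and 41.9 CPM after. Both pairs of groups overlapped, and unheated levels were close to those of WT of RNA2.

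The log2 change of gut2 at 5 min was 2.04 ± 0.14 in WT (adjusted p = 2.15e-14) and 1.49 ± 0.19 with the label clr4Δ (adjusted p = 2.29e-07). With the labels atf1Δ and pcr1Δ it was -0.20 ± 0.19 (adjusted p = 0.478) and -0.15 ± 0.19 (adjusted p = 0.632). Among the 6 genes it had the largest response differences from WT, -2.23 ± 0.24 and -2.18 ± 0.24 (adjusted p = 1.17e-08 and 2.03e-08), and from the clr4Δ label, -1.68 ± 0.27 (adjusted p = 9.77e-05) and -1.63 ± 0.27 (adjusted p = 0.000156). With WT of RNA2 alone the differences from WT were -1.34 and -1.28 (adjusted p = 0.00211 and 0.00352). Between 5 and 25 min it fell by 1.28 ± 0.18 on the log2 scale (adjusted p = 4.38e-07). SPNCRNA.1235 covers 100% of gut2 on the opposite strand. Which strand was counted is not stated, though gut2 held 298 to 2768 counts, with 50 to 283 for the other transcript.

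The glycerol dehydrogenase gene gld1 (SPAC13F5.03c, chrI:2174641-2177050, - strand) had low counts, 67 to 1326 per library. WT of RNA1 held 9.15, 8.74 and 12.7 CPM at 0 min, 57.0, 87.2 and 63.7 CPM at 5 min, and 107, 127 and 82.6 CPM at 25 min. The heated times overlapped each other and not 0 min. WT of RNA2 held 8.47, 7.38 and 7.01 CPM, then 8.39, 7.53 and 6.23 CPM, and 22.3, 16.1 and 11.2 CPM at 5 min. Libraries labelled clr4Δ held 12.7, 10.8 and 8.60 CPM, then 12.07 CPM or just above in replicates 1 and 2 and 7.52 CPM in replicate 3, and 30.5, 25.7 and 17.1 CPM at 5 min. At 2.5 min both sets overlapped 0 min, and at 5 min neither did. Libraries labelled atf1Δ held 8.42, 13.6 and 15.4 CPM and then 11.4, 19.5 and 21.4 CPM. Those labelled pcr1Δ held 12.8, 11.2 and 9.29 CPM and then 16.4, 14.7 and 15.7 CPM. Replicate 1 of atf1Δ was low at both times and made its groups overlap, while the pcr1Δ groups did not.

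The log2 change of gld1 at 5 min was 1.94 ± 0.18 in WT (adjusted p = 7.91e-11) and 1.20 ± 0.26 with the label clr4Δ (adjusted p = 0.000479). It was 0.48 ± 0.25 with atf1Δ (adjusted p = 0.155) and 0.49 ± 0.25 with pcr1Δ (adjusted p = 0.156). With the replicate block both passed (adjusted p = 0.0131 and 0.0106), and without replicate 1 of atf1Δ at 5 min the first had an adjusted p of 0.0378. These responses differed from WT by -1.46 ± 0.31 and -1.45 ± 0.31 log2 units (adjusted p = 0.00133 and 0.00164). Against WT of RNA2 alone these differences were -0.64 (adjusted p = 0.747) and -0.62 (adjusted p = 0.93). SPNCRNA.801 overlaps 10.29% of gld1 on the opposite strand, with 20 to 361 counts, and SPAC13F5.04c shares 63 bases on its own strand.

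Taking the genes together, heat for 5 min raised tps1, ntp1, gpd1, gut2 and gld1 in WT and left gpd2 uncalled. That is 5 of 6 called higher and none lower, where 25.7% of the 6172 genes tested were called higher and 24.9% lower. The median log2 change of the 6 genes was 2.02, and of all genes -0.01. The same 5 genes were called higher within WT of RNA1 (24.9% of genes higher), within WT of RNA2 (14.1%) and with the label clr4Δ (16.2%). With the labels atf1Δ and pcr1Δ, 2 of 6 were called higher, tps1 and ntp1, where 12.6% and 12.5% of genes were. The replicate block raised that count to 4 with atf1Δ, by gpd1 and gld1, and to 3 with pcr1Δ, by gld1. In both of these strains the pairing of replicate numbers was less clear than in WT and clr4Δ.

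The size of the WT response differed between the prefixes for those 5 genes. At 5 min the log2 change in RNA1 and RNA2 was 3.22 ± 0.21 and 1.58 ± 0.20 for tps1, 3.37 ± 0.15 and 1.90 ± 0.14 for ntp1, and 2.74 ± 0.16 and 1.27 ± 0.16 for gpd1. For gut2 it was 2.94 ± 0.20 and 1.14 ± 0.19, and for gld1 2.77 ± 0.25 and 1.12 ± 0.27. The difference was called lower in RNA2 for 5 of 6 genes, where 6.87% of genes tested were, with values from -1.46 to -1.80. The unheated level differed too, as tps1, ntp1, gpd1 and gut2 were higher in RNA2 at 0 min, by 1.17 ± 0.19, 0.88 ± 0.14, 0.62 ± 0.15 and 0.54 ± 0.20 log2 units. These are 4 of 6, where 13.9% of genes were called higher. The call of gut2 at 0 min was lost without any one of the 6 libraries (adjusted p = 0.0553 to 0.171). What the prefixes stand for is not given in the labels.

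**Figure D3:**
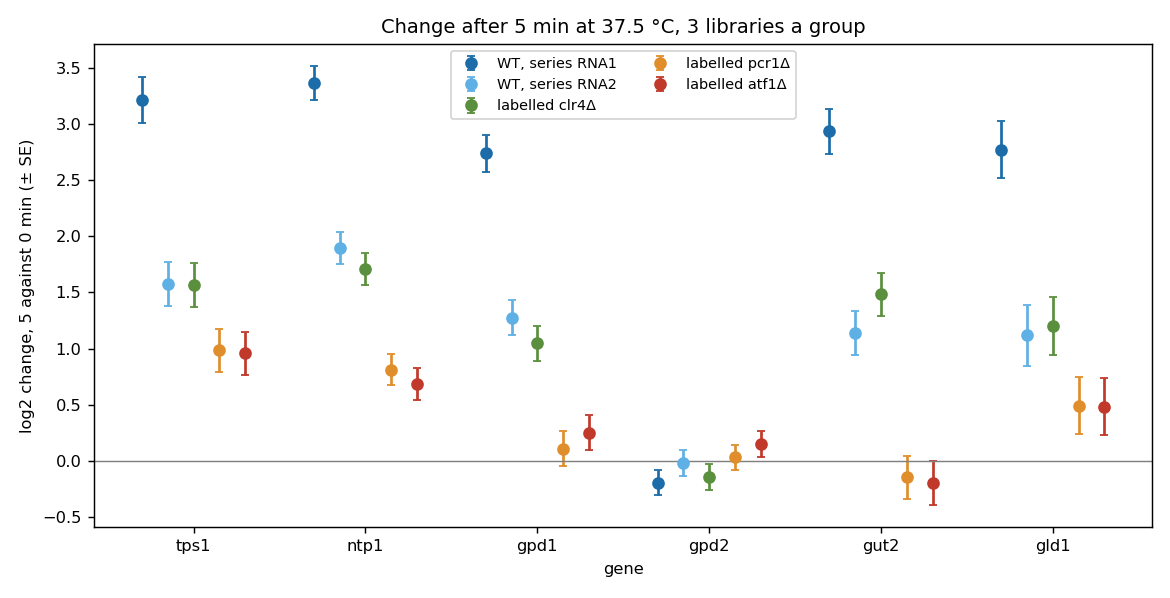
Log2 change from 0 to 5 min at 37.5 °C for each gene, with SE from the edgeR fit, in WT of RNA1 and RNA2 and in libraries labelled clr4Δ, pcr1Δ and atf1Δ, 3 libraries a group. For tps1, ntp1, gpd1, gut2 and gld1 the order runs from WT of RNA1, at 2.74 to 3.37, through WT of RNA2 and clr4Δ, at 1.05 to 1.90, to pcr1Δ and atf1Δ, at -0.20 to 0.98, while gpd2 stayed between -0.19 and 0.15.

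At 2.5 min the changes were small. Only ntp1 passed, with 0.58 ± 0.14 in WT of RNA2 (adjusted p = 0.023) and 0.63 ± 0.14 with the label clr4Δ (adjusted p = 0.0107). That is 1 of 6 called higher in each, against 1.13% and 0.907% of genes tested. The WT call was lost without replicate 2 or 3 at 0 min or replicate 1 or 2 at 2.5 min (adjusted p = 0.0818 to 0.224), and that with clr4Δ without replicate 3 at 0 min or replicate 1 or 2 at 2.5 min (adjusted p = 0.0833 to 0.108). It was also lost where only the groups compared were fitted (adjusted p = 0.198 and 0.0965). For tps1 the values were 0.57 ± 0.19 in both (adjusted p = 0.16 and 0.147), and for gpd1 0.43 ± 0.15 and 0.36 ± 0.15 (adjusted p = 0.197 and 0.324). With the replicate block tps1 and gpd1 passed in both sets (tps1 adjusted p = 9.31e-05 and 7.17e-05, gpd1 0.00395 and 0.015), and gut2 passed with clr4Δ (adjusted p = 0.00907). Without replicate 3 at 2.5 min tps1 passed in either set (adjusted p = 0.0187 and 0.0328). For gld1 the changes were -0.05 ± 0.29 and -0.01 ± 0.27. No difference in 2.5 min response between WT of RNA2 and the clr4Δ label passed the test for the 6 genes (adjusted p = 1.0 for each in edgeR), where 0% of all genes passed. Those differences ran from -0.08 to 0.20 log2 units, none with an unadjusted p under 0.05, and DESeq2 called none of the 6.

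Between 2.5 and 5 min tps1, ntp1, gpd1, gut2 and gld1 rose in WT of RNA2, by 0.84 to 1.32 log2 units, and with the label clr4Δ, by 0.69 to 1.21. These were 5 of 6 genes in each, where 7.42% and 8.57% of genes were called higher. For gld1, which had shown no change at 2.5 min, the step was 1.16 ± 0.27 (adjusted p = 0.00273) and 1.21 ± 0.26 (adjusted p = 0.000796). The WT step of gld1 was lost without replicate 1 at 5 min (adjusted p = 0.0548). Fitted on the groups compared alone, gut2 in WT (adjusted p = 0.0751) and gpd1 with clr4Δ (adjusted p = 0.0647) missed the threshold.

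By 25 min, sampled in WT of RNA1 only, the genes had taken separate courses. Against 0 min 5 of 6 were higher and gpd2 was lower, where 33.9% and 33.5% of genes were called in each direction. The changes against 0 min were 19.4-fold for ntp1, 13.1-fold for tps1, 10.4-fold for gld1 and 3.15-fold for gut2, and gpd1 stood at a log2 change of 2.76 ± 0.16. From 5 to 25 min ntp1 went on rising, by 0.91 ± 0.14 log2 units (adjusted p = 1.19e-06), as did tps1, by 0.50 ± 0.19 (adjusted p = 0.0246), and gld1, by 0.60 ± 0.22 (adjusted p = 0.0186). The last 2 calls were lost without replicate 1 or 3 at 5 min or replicate 2 at 25 min (adjusted p = 0.0611 to 0.0855 for tps1 and 0.0642 to 0.115 for gld1). At 0.02 ± 0.15, gpd1 did not move past its error, while gut2 and gpd2 fell, with changes of -1.28 ± 0.18 and -0.80 ± 0.11. That makes 3 of 6 higher and 2 lower, where 28.4% and 29.6% of genes were. The ratio of tps1 to ntp1 per kilobase went from 2.36 ± 0.28 at 0 min to 2.14 ± 0.11 at 5 min and 1.61 ± 0.06 at 25 min.

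Responses with the labels atf1Δ and pcr1Δ were smaller than in WT for tps1, ntp1, gpd1, gut2 and gld1, 5 of 6 in each comparison, where 7.94% and 6.4% of genes were called lower. These comparisons share the WT libraries. The median difference over the 6 genes was -1.61 and -1.64 log2 units, and over all genes -0.02 and -0.01. With WT of RNA1 alone as the reference the same 5 were called, and with WT of RNA2 alone ntp1, gpd1 and gut2 were. With the label clr4Δ the response was also smaller than WT for ntp1, at -0.92 ± 0.17 (adjusted p = 0.00172), gpd1, at -0.96 ± 0.19 (adjusted p = 0.00335), and tps1, at -0.83 ± 0.23 (adjusted p = 0.0486), 3 of 6 where 2.3% of genes were called lower. With WT of RNA2 alone none of the 6 passed, at -0.01 for tps1, -0.19 for ntp1 and -0.23 for gpd1 (adjusted p = 1.0 each). With the replicate block gut2 (adjusted p = 0.00189) and gld1 (adjusted p = 0.0119) were called too. The call of tps1 was also lost in a fit of the groups compared alone (adjusted p = 0.15) and without any one of 13 of the 18 libraries (adjusted p = 0.0507 to 0.189), and held only without replicate 2 at 0 min of RNA1, replicate 1 at 0 min or 3 at 5 min of RNA2, or replicate 3 at 0 min or 1 at 5 min of clr4Δ.

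Within the prefix RNA3, where no WT library enters, 3 of 6 responses were smaller with the label atf1Δ than with clr4Δ, those of ntp1, gpd1 and gut2, where 2.04% of genes were called lower. The same 3 genes were called with pcr1Δ, where 1.81% were. These comparisons share the clr4Δ libraries. Whether libraries of 1 prefix were made or sequenced together is not in the labels. The 10 genes with most counts held 6.50% to 7.59% of counts with clr4Δ and 8.48% to 10.6% with atf1Δ and pcr1Δ. In WT of RNA2 they held 5.97% to 7.36%, and in WT of RNA1 8.45% to 10.52%. The range of WT of RNA1 thus overlapped that of atf1Δ and pcr1Δ, and the range of WT of RNA2 that of clr4Δ. What part a batch within RNA3 has in these differences was not tested and cannot be told apart from strain. With the replicate block tps1 passed in both and gld1 in the first (adjusted p = 0.0413), and for gpd2 the values were 0.29 ± 0.16 and 0.17 ± 0.16 (adjusted p = 0.438 and 0.826). Between atf1Δ and pcr1Δ themselves none of the 6 responses differed past the threshold, where 0.0324% of genes did. Those differences ran from -0.13 ± 0.20 for ntp1 to 0.14 ± 0.22 for gpd1. None of the 6 had an unadjusted p under 0.05 or was called by DESeq2, and the 95% interval of gpd1 was -0.29 to 0.57.

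Before heat the genes did not move in 1 direction. Compared with the clr4Δ label, ntp1 was higher with atf1Δ, by 1.01 ± 0.14 log2 units (adjusted p = 6.17e-07), and with pcr1Δ, by 0.54 ± 0.14 (adjusted p = 0.00236). Lower were gpd1 in both and gpd2 with atf1Δ, at -0.47 ± 0.11 (adjusted p = 0.001). That is 1 of 6 higher and 2 lower with atf1Δ, where 23% of genes were higher and 23.1% lower, and 1 higher and 1 lower with pcr1Δ, where 20.6% and 22.7% were. Values for tps1 were 0.32 ± 0.19 and 0.02 ± 0.19, for gut2 0.01 ± 0.19 and -0.03 ± 0.19, and for gld1 0.24 ± 0.27 and 0.06 ± 0.27, none of them past the threshold. Between atf1Δ and pcr1Δ none passed, where 1.41% of genes did; ntp1 came nearest, at 0.48 ± 0.14 (adjusted p = 0.0892), and was called by DESeq2 (adjusted p = 0.0404). Of the 6, ntp1 and gpd2 had an unadjusted p under 0.05 (0.00163 and 0.024).

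Against unheated WT, tps1, ntp1 and gut2 were called higher with the label atf1Δ and gpd1 and gpd2 lower, 3 and 2 of 6 where 22.7% and 21.8% of genes were. With pcr1Δ tps1 and ntp1 were higher and gpd1 and gpd2 lower, where 19.1% and 19.2% were. With clr4Δ tps1, ntp1 and gpd1 were higher, 3 of 6 where 14.3% were. For ntp1 the differences were 1.65 ± 0.12, 1.17 ± 0.12 and 0.63 ± 0.12 log2 units. For gpd1 they were -2.03 ± 0.15, -1.73 ± 0.15 and 0.80 ± 0.13. With WT of RNA2 alone the 3 clr4Δ calls were lost (adjusted p = 0.693 for tps1, 0.492 for ntp1 and 0.0659 for gpd1), as were tps1 with pcr1Δ (adjusted p = 0.466) and gut2 with atf1Δ (adjusted p = 0.552). For gld1 with atf1Δ the difference was 0.51 ± 0.23 (adjusted p = 0.0697), and it passed without replicate 3 of RNA1 or replicate 1 of atf1Δ (adjusted p = 0.0163 to 0.0385). For gut2 with clr4Δ it was 0.41 ± 0.17 (adjusted p = 0.0711), and it passed without replicate 3 of clr4Δ (adjusted p = 0.0432). The calls of gut2 with atf1Δ and of gpd2 with pcr1Δ were each lost without any one of 7 of the 9 libraries (adjusted p = 0.0505 to 0.144 and 0.0678 to 0.194). That of gut2 held without replicate 1 at 0 min of RNA1 or of RNA2, and that of gpd2 without replicate 3 of RNA1 or 2 of RNA2.

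Set in order of level per kilobase, unheated WT of RNA1 ran from gpd1 at 401 ± 57 CPM per kb through gpd2 at 282 ± 34, tps1 at 85.1 ± 15.4, ntp1 at 35.9 ± 3.1 and gut2 at 11.4 ± 1.1 to gld1 at 4.24 ± 0.91. At 25 min the order was gpd1 at 2719 ± 134, tps1 at 1117 ± 89, ntp1 at 695 ± 63, gpd2 at 142 ± 4, gld1 at 43.8 ± 9.2 and gut2 at 35.9 ± 4.4. Neighbours in both orders were apart by more than their spread, except gld1 and gut2 at 25 min. With the label atf1Δ at 0 min tps1 led, at 269 ± 16 CPM per kb, before gpd2 at 208 ± 18, ntp1 at 152 ± 1 and gpd1 at 122 ± 6. With pcr1Δ gpd2 at 250.2 ± 14 and tps1 at 219 ± 20 came first with overlapping libraries, before gpd1 at 149.8 ± 39 and ntp1 at 109 ± 4.

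The other genes of the pathways were counted from a list of 16 tested genes for trehalose phosphate synthases and a phosphatase, dihydroxyacetone kinases, a channel protein and enzymes of hexose and triose phosphates. In WT at 5 min 10 of 16 were called higher and 2 lower, where 25.7% and 24.9% of all genes were, and their median log2 change was 0.35, against -0.01 over all genes. Its leading gene was SPAC22F8.05, annotated as a trehalose-phosphate synthase, which stood at 37.0 ± 11.4, 1012 ± 69 and 1545 ± 177 CPM at 0, 5 and 25 min in WT of RNA1. Its log2 change at 5 min was 3.87 ± 0.17 in WT (adjusted p = 1.46e-19), 2.97 ± 0.22 with the label clr4Δ (adjusted p = 2.82e-12), -0.02 ± 0.22 with atf1Δ and -0.03 ± 0.22 with pcr1Δ. Levels with atf1Δ were 72.7 ± 3.5 and 71.7 ± 1.0 CPM and with pcr1Δ 66.5 ± 1.7 and 65.3 ± 6.6 CPM. Its response differed from that with the clr4Δ label by -2.99 ± 0.31 log2 units with atf1Δ (adjusted p = 4.99e-08) and by -2.998 ± 0.31 with pcr1Δ (adjusted p = 6.17e-08). Another annotated synthase gene, tps3, rose in every strain at 5 min, by 2.77 ± 0.17 in WT (adjusted p = 1.41e-15), 1.45 ± 0.23 with atf1Δ and 1.69 ± 0.23 with pcr1Δ. The listed gene tps2 moved less, from 107 ± 4 to 137 ± 3 CPM in WT of RNA1 and from 108 ± 6 to 122 ± 8 CPM in RNA2. With atf1Δ it stood at 109 ± 5 and 120 ± 5 CPM, and with pcr1Δ at 106 ± 5 and 115 ± 6 CPM.

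In the supply of UDP-glucose, fyu1, a UTP-glucose-1-phosphate uridylyltransferase gene, rose by 1.45 ± 0.09 in WT (adjusted p = 8.05e-15) and by 0.79 ± 0.13 with the label clr4Δ (adjusted p = 1.66e-05). With atf1Δ and pcr1Δ it changed by 0.32 ± 0.13 (adjusted p = 0.0683) and 0.24 ± 0.13 (adjusted p = 0.181). Before heat it was lower than with clr4Δ, at -1.20 ± 0.13 and -1.44 ± 0.13 log2 units (adjusted p = 9.87e-09 and 2.66e-10), the direction seen for gpd1. Another listed gene of this supply, ugp1, had a higher mean at 5 than at 0 min in every set. It went from 67.3 ± 0.9 to 106 ± 10 CPM in WT of RNA1 and from 55.8 ± 1.5 to 86.25 ± 4.4 CPM in RNA2. With atf1Δ it went from 65.6 ± 3.8 to 92.7 ± 11 CPM, with pcr1Δ from 60.1 ± 3.6 to 90.9 ± 4.4 CPM, and with clr4Δ from 55.5 ± 6.0 to 83.5 ± 13 CPM. The trehalose-6-phosphate phosphatase gene tpp1 rose in WT by 0.72 ± 0.08 at 5 min and by 1.88 ± 0.11 at 25 min (adjusted p = 2.25e-16), and by 0.50 ± 0.11 with atf1Δ and 0.44 ± 0.11 with pcr1Δ at 5 min. At 25 min 8 of the 16 were higher and 5 lower, where 33.9% and 33.5% of all genes were, with the dihydroxyacetone kinase gene dak2 among the latter at -1.51 ± 0.12, while dak1 was higher by 1.00 ± 0.10. With the labels atf1Δ, pcr1Δ and clr4Δ 7, 5 and 6 of 16 rose at 5 min, where 12.6%, 12.5% and 16.2% of all genes did. With WT of both prefixes as the reference, responses were called smaller for 4 with atf1Δ, 3 with pcr1Δ and 2 with clr4Δ, where 7.94%, 6.4% and 2.3% of all genes were. Compared with clr4Δ, SPAC22F8.05 alone of the 16 was called smaller, with either label, where 2.04% and 1.81% of all genes were.

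**Figure D4:**
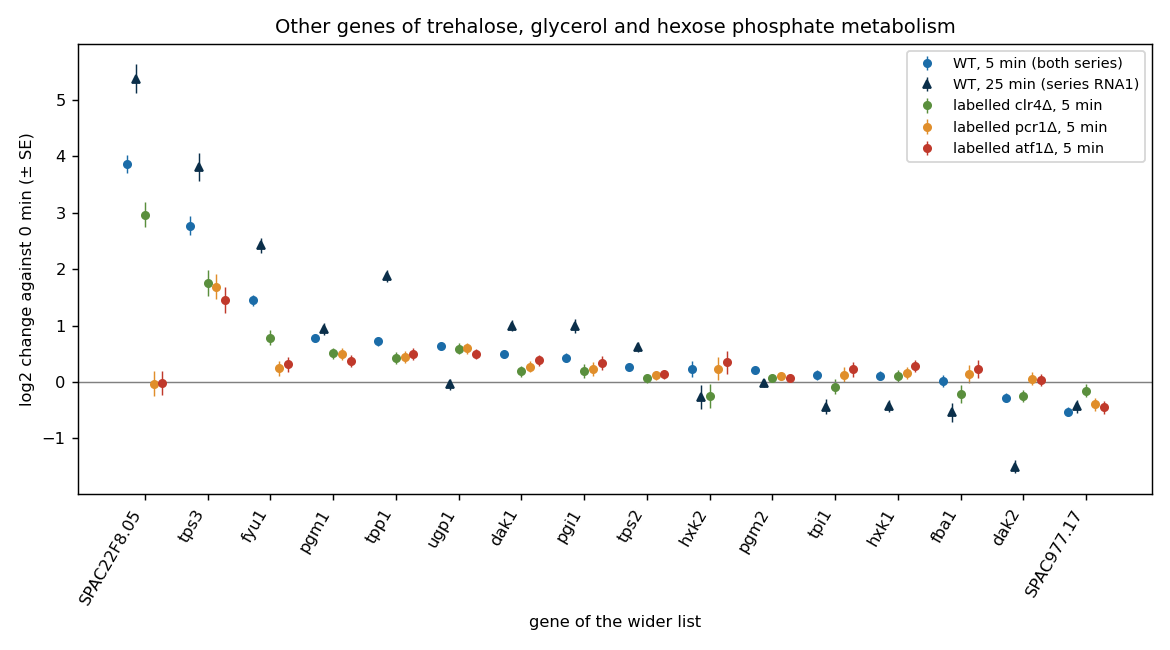
Log2 change against 0 min, with SE, for the 16 other genes of the pathways, in WT at 5 min (both prefixes) and 25 min (RNA1), and at 5 min in libraries labelled clr4Δ, pcr1Δ and atf1Δ. At the left SPAC22F8.05 rose by 3.87 and 5.38 in WT and by 2.97 with clr4Δ and lay at -0.02 and -0.03 with atf1Δ and pcr1Δ, while tps3 rose in all of them.

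Over the 13 group means, log2(CPM + 1) of tps1 and ntp1 had a Pearson correlation of 0.977, the highest of the 15 pairs among the 6 genes, and gpd2 was negatively correlated with the other 5 (-0.06 with gpd1 to -0.73 with gld1). Groups share prefix and strain, so these are descriptions only. Of 4898 genes with a mean of at least 10 CPM, those nearest to tps1 were ubc6 (0.994), vps15 (0.988) and psi1 (0.98), and those nearest to ntp1 were nhp6 (0.981), SPCC191.01 (0.977) and tps1. For gpd1 they were SPAC9E9.04 (0.988), fhn1 (0.986) and pil1 (0.982), and for gpd2 SPAC694.04c (0.983), npt1 (0.981) and maa1 (0.97). For gut2 they were ght2 (0.954), msy1 (0.949) and SPNCRNA.904 (0.945), and for gld1 slm1 (0.967), lsd90 (0.963) and mug51 (0.961).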

How the data were processed

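The 39 mRNA libraries were made from hot-phenol RNA with a KAPA mRNA HyperPrep kit, per the labels' protocols; the other 222 of 261 samples were not analysed here. The authors deposited raw counts per gene, in files with the summary lines STAR writes; STAR and build ASM294v2 are named in the submitters' processing notes, and the strand column used is not stated. For 18 libraries the authors also deposited a second table, which behaves as a summed coverage signal (median 49.8 units per count), not as counts; it served as an alternative only, by limma 3.58.1 on log2(signal + 50).

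Counts were tested in R 4.3.3 with edgeR 4.0.16: filterByExpr (minimum count 10, minimum total 15) left 6172 genes, TMM scaling, quasi-likelihood F-tests (2-sided) on 13 group means with 26 residual degrees of freedom. p-values were Benjamini-Hochberg adjusted over all genes tested and called under 0.05; intervals are 1.96 SE. The fit was tested on simulated data. WT at 0 and 5 min is the mean of both prefixes. Responses were compared as differences between contrasts. Same-numbered libraries of a strain and prefix deviated together (33 pairs, correlation 0.143 to 0.777). In both WT sets and clr4Δ every same-numbered pair stood above every other-numbered one, which reached at most 0.278. In atf1Δ and pcr1Δ other-numbered pairs reached 0.372 and 0.35, above the lowest same-numbered ones, at 0.308 and 0.143. Numbers thus pair times within WT and clr4Δ, and less clearly within atf1Δ and pcr1Δ. Between strains of RNA3 at 0 min 9 same-numbered pairs ran from -0.104 to 0.294, and numbers do not pair the strains. No pair of replicates agreed within sampling noise (chi-square per gene 5.34 to 59.4).

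The 6 genes, the gene list, the motifs and the alternatives were chosen with earlier results of these data known. Named beside the 6 were the deleted genes, the 3 listed pathway genes of smallest adjusted p in WT at 5 and at 25 min, and the 3 genes nearest each of the 6 by correlation. The genes dak1, dak2, tps2 and ugp1 were named after their values were seen. Of 31 list names 4 were repeats, 6 unmatched and 5 left out as genes of other function. Gene products and promoter sequences come from RefSeq ASM294v3 (6126 of the tested genes matched by ID).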

Additional observations from a re-analysis of the deposited data

Results flagged for a closer look

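The response to 5 min of heat differed between groups, by a test of the difference itself, in the following cases, given as log2 units with the first group minus the second. For the label atf1Δ minus WT the differences were -1.44 for tps1, -1.95 for ntp1, -1.76 for gpd1, -2.23 for gut2 and -1.46 for gld1. For pcr1Δ minus WT they were -1.41 for tps1, -1.82 for ntp1, -1.90 for gpd1, -2.18 for gut2 and -1.45 for gld1. For clr4Δ minus WT they were -0.83 for tps1, -0.92 for ntp1 and -0.96 for gpd1. Within the prefix RNA3, atf1Δ minus clr4Δ gave -1.03 for ntp1, -0.80 for gpd1 and -1.68 for gut2, and pcr1Δ minus clr4Δ gave -0.90 for ntp1, -0.94 for gpd1 and -1.63 for gut2. In WT, RNA2 minus RNA1 gave -1.64 for tps1, -1.47 for ntp1, -1.46 for gpd1, -1.80 for gut2 and -1.66 for gld1. With WT of RNA2 alone as the reference, no clr4Δ difference passed, nor did those of tps1 and gld1 with atf1Δ or pcr1Δ. The call of tps1 in clr4Δ minus WT was lost without any one of 13 of 18 libraries. Those of gpd1 against clr4Δ were lost without any one of 10 of 12 libraries for atf1Δ and 4 of 12 for pcr1Δ.

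For tps1 and gld1 the WT difference between prefixes was larger than the atf1Δ and pcr1Δ differences from WT, and for ntp1, gpd1 and gut2 it was smaller. It was larger than each of the 3 listed clr4Δ differences. The 5 min responses with the label clr4Δ, under the third prefix, lay within -0.23 to 0.35 log2 units of those in WT of RNA2 for these 5 genes. What part the prefix has in the deletion comparisons with WT was not tested and cannot be told apart from strain.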

How the results depend on the processing

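Counts below are of the 6 genes called. Shares of all genes called under these alternatives are not given, here or above, so gains and losses of calls describe the 6 genes alone. With the replicate block, called were 3 in WT of RNA2 at 2.5 min, 4 in atf1Δ and 3 in pcr1Δ at 5 min, 4 in clr4Δ at 2.5 min, 5 in clr4Δ minus WT and 5 in atf1Δ minus clr4Δ responses, and 1 (ntp1) in atf1Δ minus pcr1Δ at 0 min, where the numbers do not pair the strains. The block lost no call, and gained 16 over the 138 values it could give; the one not given above is gpd2 in the atf1Δ minus WT response (adjusted p = 0.0434). With WT of RNA2 alone, 3 were called in the atf1Δ and 3 in the pcr1Δ response against WT, and 0 in the clr4Δ response and 0 in clr4Δ at 0 min; with WT of RNA1 alone, 5 in the clr4Δ response. Fitting only the groups compared gave 0 in WT of RNA2 and 0 in clr4Δ at 2.5 min and 1 in atf1Δ minus pcr1Δ at 0 min, DESeq2 1 in the last, and the second table, of deposited signal, gave 0 at 2.5 min in both. Leaving out a library gave 3 to 5 at 25 against 5 min and 0 to 2 at 2.5 min in both sets. No sign of a called value was reversed under any alternative. DESeq2 size factors changed 3 of 162 calls, library totals 4, no filter 2, DESeq2 1 and the fit of only the groups compared 14; leaving out 1 library changed 68 of 1458, and the cause was not tested. The low counts of gld1 (67 to 1326), the unstated strand of counting and 3 libraries a group limit the precision.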
